A study of Rattus norvegicus with 20 samples.

Results

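The cluster of miR-132 and miR-212 is a pair of neighbouring microRNA (miRNA) genes, Mir132 and Mir212, whose hairpin transcripts each give a mature miRNA from the 5′ arm (5p) and from the 3′ arm (3p). Its 4 mature miRNAs, rno-miR-132-3p, rno-miR-132-5p, rno-miR-212-3p, and rno-miR-212-5p, were taken by name (written without the rat prefix from here on) out of the 617 miRNAs with reads, and all 4 passed the filter for testing with 500 miRNAs in all. They were measured by small RNA sequencing of the adBNST (anterodorsal part of the bed nucleus of the stria terminalis), which belongs to the extended amygdala, in Sprague-Dawley rats. After weaning, on postnatal day 21, pups lived for 6 weeks either alone (socially isolated, SI) or with same-sex littermates (group housed, GH), with 5 rats in each group of sex and housing. All 20 rats went through the elevated plus maze at 9 weeks of age before the tissue was taken, so the controls were exposed to the maze too. The adBNST was punched from frozen brain, and the punch holds every cell type of the region, so that fewer cells of a type and less RNA per cell cannot be told apart. The labels give no litter for any rat. Some GH rats may thus share a cage or litter, while the main tests took each rat as independent. Per the paper, the sequenced females were those with the highest RNA integrity that also covered a range of estradiol levels.

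In neurons, the locus is known as a target of the transcription factor CREB, and its transcription rises with synaptic activity and with BDNF. miR-132-3p is the best studied product. It is known to repress the GTPase-activating protein p250GAP, and through it to promote the growth of dendrites and spines. Of the 2 strands of a hairpin, the one that is mainly loaded into Argonaute is called the guide, and the other is called the passenger strand.

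The mature sequences are shown because the seed, bases 2 to 8 counted from the 5′ end, sets most of the targets of a miRNA. They come from RefSeq (build GRCr8), with the seed in capitals, and each was identical to the reference read of that miRNA in the deposited files.
miR-132-3p: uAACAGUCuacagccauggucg
miR-212-3p: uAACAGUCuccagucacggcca
miR-132-5p: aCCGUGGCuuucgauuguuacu
miR-212-5p: aCCUUGGCucuagacugcuuacug

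Both 3p strands carry the same seed, AACAGUC, which no other of the 693 mature rat miRNAs in the RefSeq table had. Counted from the 5′ end of miR-132-3p, they differed at 5 of 22 bases (A10C, C14U, U17C, U20C, and G22A), all outside the seed. The 5p strands did not share a seed, because G4U separates them within the first 9 bases. Both genes lie on the plus strand of chromosome 10, in the order Hic1, Mir212, Mir132, a long non-coding RNA (LOC120095261), and Ovca2. miR-212-5p lies at chr10:60521771-60521794, miR-212-3p at chr10:60521811-60521832, miR-132-5p at chr10:60522055-60522076, and miR-132-3p at chr10:60522091-60522112. Between the end of miR-212-3p and the start of miR-132-5p lie 222 bases.

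Libraries held 3428930 to 11383055 miRNA reads, with a median of 6705043, and the 4 members together took 0.393% to 1.10% of them. No read of a member was also assigned to another miRNA, so the 3p strands were told apart in spite of their shared seed. Levels are given as CPM, reads of a miRNA per 1000000 miRNA reads, after normalisation with the TMM method, which corrects for differences in library composition. TMM factors were 0.962 to 1.26 in GH and 0.831 to 1.03 in SI libraries, and SI females had fewer distinct sequences (11399 to 16310) than GH females (17315 to 20913). The part of these differences in the results below was not tested. The libraries of I16F, I17M, I20M, and I17F had the lowest median correlation with GH libraries over the 500 miRNAs (Pearson r 0.892 to 0.947, with I15M next at 0.948), and key values are given without them too. The file of I17M is named as that of a female and the file of I17F as that of a male, and both rats were placed by their labels.

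The strands of the locus differed widely in abundance, and the dominant arm was not the same in both hairpins. Median levels were 5889 CPM for miR-132-3p (rank 33 of the 500 miRNAs), 1389 CPM for miR-212-5p (rank 82), 400 CPM for miR-132-5p (rank 138), and 216 CPM for miR-212-3p (rank 173). This order held in each of the 20 rats. In Mir132 the 3p arm dominated, with 7.72 to 21.8 reads of miR-132-3p for each read of miR-132-5p (median 15.7). In Mir212 the 5p arm dominated, with 3.09 to 11.2 reads of miR-212-5p for each read of miR-212-3p (median 6.34). miR-132-3p made up 69.4% to 79.4% of the reads of the locus. miR-212-5p made up 13.3% to 23.2%, miR-132-5p 3.34% to 8.99%, and miR-212-3p 1.71% to 4.32%. Of the reads assigned to both 3p strands, whatever their 5′ end, miR-212-3p supplied 2.21% to 5.40%, and miR-132-3p supplied the rest. The efficiency of ligation and PCR for each miRNA was not measured here.

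Housing was compared first for the rarer strand of each hairpin. Over both sexes, miR-132-5p was lower in SI compared to GH rats by 36.6%, and miR-212-3p was lower by 26.2%. The abundant strands miR-132-3p and miR-212-5p did not pass the threshold in any comparison. In males alone, where 20 of the 500 miRNAs (4%) passed the main test, and in females alone, no member passed it.

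miR-132-5p, the rarer strand of Mir132, measured 489, 333, 470, 604, and 393 CPM in the GH males G16M, G19M, G18M, G20M, and G21M. In the SI males I15M, I19M, I22M, I17M, and I20M it measured 396, 404, 362, 243, and 206 CPM. The male groups overlapped, but all 5 SI males were below the median GH male, and I17M and I20M were below every GH male. In the GH females G15F, G12F, G16F, G13F, and G17F it measured 522, 543, 565, 557, and 444 CPM. In the SI females I14F, I10F, I17F, I12F, and I16F it measured 368, 423, 225, 317, and 171 CPM. Every SI female was thus below every GH female, which was seen for no other member in either sex. Of the 500 miRNAs, 8 (1.6%) had all SI females below all GH females, and the males had 46 such miRNAs (9.2%).

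The log2 fold change of miR-132-5p was −0.51 in males (standard error 0.25, 95% interval −1.03 to 0.01, adjusted p = 0.22). In females it was −0.81 (standard error 0.25, 95% interval −1.33 to −0.29, adjusted p = 0.084). Adjusted p-values come from edgeR's quasi-likelihood test with Benjamini-Hochberg adjustment over all 500 miRNAs. The female value rested on an unadjusted p of 0.0039 and missed the threshold of 0.05 that 2 miRNAs (0.4%) passed. With DESeq2's Wald test, by which 67 of 586 miRNAs (11.4%) passed in females, it was −0.80 (adjusted p = 0.017). Over the alternatives the adjusted p in females ranged from 0.017 to 0.29. Averaged over both sexes, which uses the same rats again, it was −0.66 (standard error 0.18, 95% interval −1.02 to −0.29, adjusted p = 0.014). In that comparison 88 of the 500 miRNAs (17.6%) passed, 51 of them (10.2%) lower in SI, so that 2 of the 4 members stand against a wide background of change. I16F, I20M, I17F, and I17M, the libraries least like GH, also had the lowest miR-132-5p levels of all 20 rats (171 to 243 CPM, with I12F next at 317 CPM). Without these 4 rats the log2 fold change over both sexes was −0.40 (adjusted p = 0.093), past the threshold no longer. Over the alternatives that use rats irrespective of their animal numbers, the adjusted p over both sexes ranged from 0.00063 (DESeq2) to this value. Among the few rats that share a number across housing groups it was 0.20 with the number as a block.

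miR-212-3p, which shares its seed with miR-132-3p, measured 250, 240, 244, 279, and 205 CPM in the GH males in the same order. In the SI males it measured 181, 256, 215, 179, and 154 CPM. I15M, I17M, and I20M were below every GH male, and I19M was above all but 1 of them. In the GH females it measured 178, 278, 249, 275, and 292 CPM. In the SI females it measured 201, 217, 151, 150, and 137 CPM. All SI females were below the median GH female, and the groups overlapped only through the GH female G15F. The log2 fold change was −0.31 in males (standard error 0.21, adjusted p = 0.43). Females had −0.57, with a standard error of 0.21, an unadjusted p of 0.013, and an adjusted p of 0.11. Over both sexes it was −0.44 (standard error 0.15, 95% interval −0.75 to −0.13, adjusted p = 0.045). This call was at the edge of the threshold. With 1 rat left out in turn it remained in 5 of 20 fits (those without I19M, G15F, I14F, I10F, or I16F), and without I16F, I17F, I17M, and I20M it was −0.31 (adjusted p = 0.22). With only the I17 rats left out it was −0.41 (adjusted p = 0.10).

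**Figure D1:**
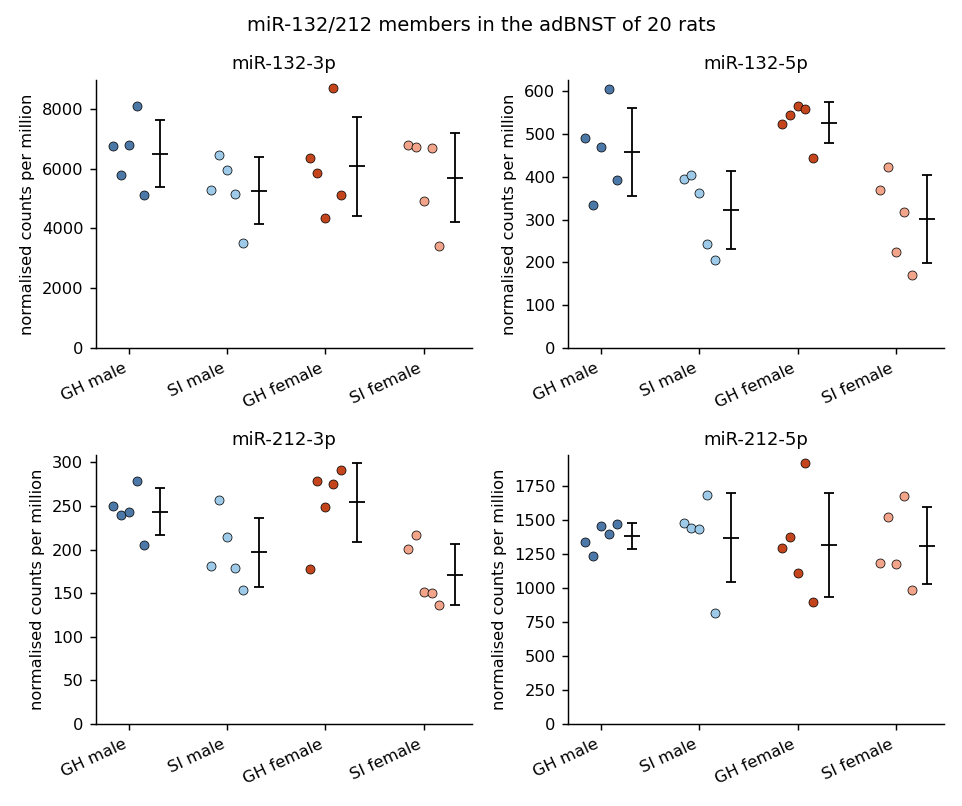
Normalised CPM of each member (vertical axes, linear from 0) in the 4 groups, with 1 point per rat in the order used in the text and the mean ± SD (n = 5) beside the points. For miR-132-5p all SI females lie at or below 423 CPM and all GH females at or above 444 CPM, and for the other members the groups overlap.

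miR-132-3p, the main product of the locus, measured 6736, 5777, 6770, 8098, and 5120 CPM in the GH males. In the SI males it measured 5279, 6461, 5937, 5153, and 3499 CPM. All 5 SI males were below the median GH male, but only I20M was below the whole GH range. In the GH females it measured 6360, 5841, 4361, 8701, and 5125 CPM. In the SI females it measured 6776, 6712, 4918, 6670, and 3419 CPM. Here 3 of 5 SI females were above the median GH female, and I16F was the lowest rat of all. The log2 fold change was −0.30 in males (standard error 0.22, adjusted p = 0.46), −0.09 in females (standard error 0.22, adjusted p = 0.84), and −0.20 over both sexes (standard error 0.16, adjusted p = 0.41). The 95% interval over both sexes, −0.52 to 0.13, allows a level up to 30.4% lower or 9.15% higher in SI.

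miR-212-5p, the main product of Mir212, measured 1343, 1241, 1457, 1402, and 1476 CPM in the GH males. In the SI males it measured 1480, 1443, 1438, 1687, and 816 CPM. The SI males were spread on both sides of the GH males, and I20M stood far below the rest. In the GH females it measured 1296, 1375, 1112, 1923, and 902 CPM. In the SI females it measured 1187, 1528, 1180, 1682, and 987 CPM, all within the GH range. The log2 fold change was −0.01 in males, in females, and over both sexes (adjusted p = 0.99, 0.98, and 0.98). The 95% interval over both sexes was −0.33 to 0.31.

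**Figure D2:**
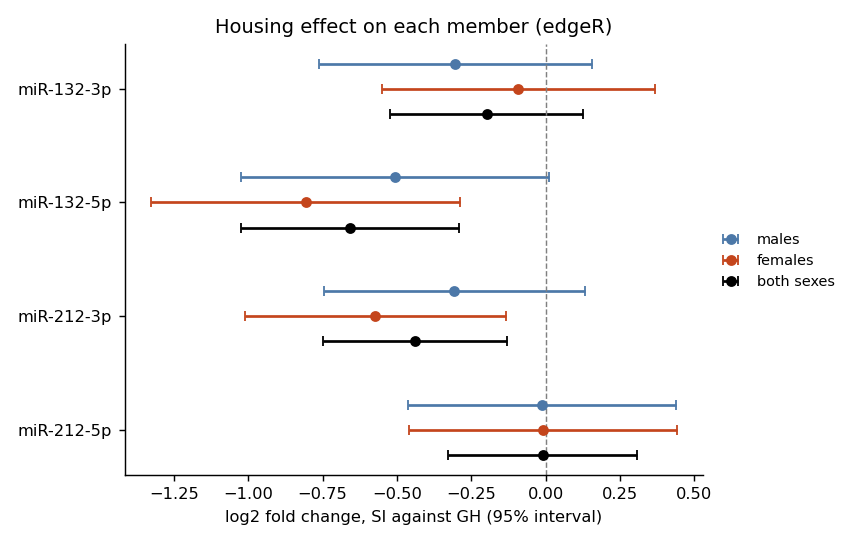
Log2 fold change of SI against GH for each member (horizontal axis, points) with its 95% interval (bars) from edgeR, in males, in females, and over both sexes. The intervals over both sexes lie below 0 for miR-132-5p (−1.02 to −0.29) and miR-212-3p (−0.75 to −0.13) and include 0 for miR-132-3p and miR-212-5p.

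The study also asked whether housing acted differently in the sexes. The difference between the female and the male log2 fold change was −0.30 for miR-132-5p (95% interval −1.03 to 0.43), −0.27 for miR-212-3p (−0.88 to 0.35), 0.21 for miR-132-3p (−0.44 to 0.86), and 0.00 for miR-212-5p (−0.64 to 0.64). By the interaction test the adjusted p of the 4 members was at least 0.92, and 2 of the 500 miRNAs (0.4%) passed, so a difference between the sexes was not shown for any member. These intervals are wide compared with the effects themselves. In GH rats, females compared to males differed by 0.20 for miR-132-5p, 0.06 for miR-212-3p, −0.10 for miR-132-3p, and −0.07 for miR-212-5p on the log2 scale (adjusted p = 0.996 for each). In SI rats these values were −0.10, −0.20, 0.11, and −0.06 (adjusted p of 0.88 or more). Of the 500 miRNAs, edgeR called 0 between the sexes in GH rats and 0 in SI rats, with 12 and 50 at an unadjusted p under 0.05. DESeq2, run without the count filter on 586 miRNAs, called 5 in each.

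Ratios of members within a library need no normalisation and follow the strands directly. In females, each read of miR-132-5p came with 7.72 to 15.6 reads of miR-132-3p in GH rats and with 15.9 to 21.8 in SI rats, so the groups did not overlap. Of 158 hairpins with both arms tested, 6 (3.8%) had no overlap of the female groups in the ratio of major to minor arm, counted in either direction. The male groups had no overlap in 20 (12.7%). The log2 ratio of miR-132-3p to miR-132-5p averaged 3.49 ± 0.37 (SD, n = 5) among the group housed and 4.27 ± 0.18 (SD, n = 5) among the isolated females. The difference of 0.78 had the smallest p that 5 rats against 5 allow (exact permutation test, two-sided, p = 0.0079), and the p adjusted over the 8 ratio tests was 0.063. In males the log2 ratio was 3.70 to 4.12 in GH and 3.74 to 4.41 in SI rats, a difference of 0.21 (exact permutation test, two-sided, p = 0.15, adjusted p = 0.20).

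In Mir212 the log2 ratio of miR-212-3p to miR-212-5p was lower in SI by 0.27 in males (exact permutation test, two-sided, p = 0.19) and by 0.58 in females (exact permutation test, two-sided, p = 0.063), with adjusted p-values of 0.22 and 0.13. The ratio of the 5p strands, miR-132-5p to miR-212-5p, had log2 differences of −0.48 in males and −0.89 in females (exact permutation test, two-sided, p = 0.040 and 0.016, adjusted p = 0.11 and 0.063). The ratio of the 3p strands with the common seed, miR-132-3p to miR-212-3p, had differences of 0.01 and 0.47 (exact permutation test, two-sided, p = 0.95 and 0.11). No ratio in a single sex passed the threshold after adjustment.

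**Figure D3:**
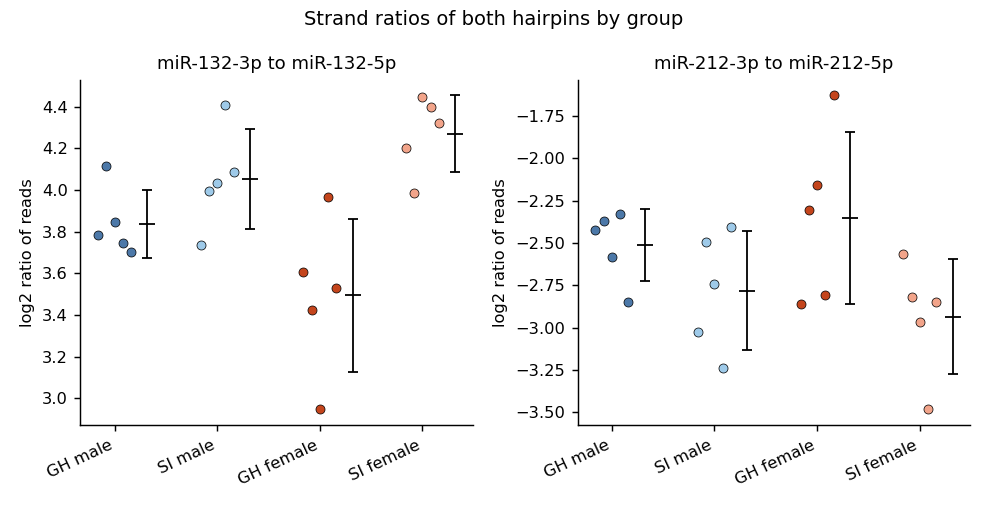
Log2 ratio of 3p to 5p reads of Mir132 (left) and Mir212 (right) in the 4 groups, with 1 point per rat and the mean ± SD (n = 5) beside the points. Values above 0 mean more 3p than 5p reads, and in Mir132 the SI females (3.99 to 4.45) lie above all GH females (2.95 to 3.96).

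The ratios were also averaged over the sexes, with housing permuted within each sex, a test added after the data had been seen. The log2 ratio of miR-132-3p to miR-132-5p was then higher in SI by 0.50 (exact permutation test, two-sided, p = 0.0012). Without I16F, I17F, I17M, and I20M it was 0.39 (exact permutation test, p = 0.019). The log2 ratio of miR-212-3p to miR-212-5p was −0.43 (exact permutation test, two-sided, p = 0.016), and −0.37 with both I17 rats left out (exact permutation test, p = 0.052). The ratio of the 5p strands, miR-132-5p to miR-212-5p, was −0.68 (exact permutation test, two-sided, p = 0.00066), and that of the 3p strands, miR-132-3p to miR-212-3p, was 0.24 (exact permutation test, two-sided, p = 0.11). Adjusted over these 4 ratios, the p-values were 0.0024, 0.021, 0.0024, and 0.11 in the order given. In both hairpins the ratio of the dominant arm (3p in Mir132, 5p in Mir212) to the minor arm was thus higher in SI. The dominant strands themselves were not higher, with log2 fold changes of −0.20 for miR-132-3p and −0.01 for miR-212-5p over both sexes. The SI minus GH difference in the ratio of dominant to minor arm was also taken for all 158 hairpins. Its median was 0.19, 89 hairpins (56.3%) had a positive value, and 32 (20.3%) passed an adjusted p under 0.05. Ordered by the difference itself from the highest down, Mir132 ranked 66 (adjusted p = 0.012) and Mir212 ranked 68 (adjusted p = 0.066) of the 158 hairpins. In size their shifts were thus within the bulk of the distribution. This rank takes no account of how much each ratio varied between rats, and Mir132 was among the 32 hairpins that passed.

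**Figure D4:**
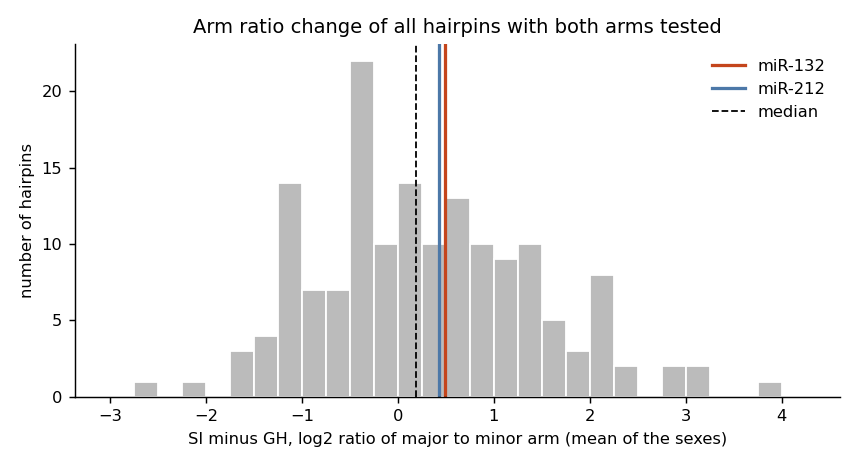
Histogram of the SI minus GH difference in the log2 ratio of the more abundant to the less abundant arm, averaged over the sexes, for 158 hairpins (vertical axis, number of hairpins). The lines mark Mir132 at 0.49, Mir212 at 0.43, and the median of all hairpins at 0.19 (1 was added to each count here).

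IsomiRs, reads of a miRNA that differ from its reference sequence, were then examined, since a changed 5′ end moves the seed. The share of reads equal to the reference was 55.6% to 70.9% for miR-132-3p, 19.8% to 57.6% for miR-132-5p, and 29.1% to 52.4% for miR-212-3p. For miR-212-5p it was only 8.32% to 14.5%, because the main form, with a mean of 76.1% of its reads, lacks the last base of the reference. The main form and the reference of miR-212-5p have the same seed and are shown with it in capitals.
miR-212-5p, main form: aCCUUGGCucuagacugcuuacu
miR-212-5p, reference: aCCUUGGCucuagacugcuuacug

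A changed 5′ end was common in miR-132-5p alone of the 4 members, at 28.7% to 62.2% of its reads, compared with 3.36% to 5.61% in miR-132-3p, 0% to 10.3% in miR-212-3p, and at most 9.84% in miR-212-5p. Most of these reads began 1 base earlier, which moves the seed from CCGUGGC to ACCGUGG. The next most counted forms of miR-132-5p after the reference lacked 3 and 2 bases at the 3′ end, took means of 18.1% and 13.6% of its reads, are of this kind, and are shown with their own bases 2 to 8 in capitals.
miR-132-5p, 20-base form: aACCGUGGcuuucgauuguu
miR-132-5p, 21-base form: aACCGUGGcuuucgauuguua

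Forms that began 1 base earlier took 24.8% to 42.4% of the miR-132-5p reads of GH males and 33.9% to 43.7% of those of SI males. The range was 31.1% to 38.9% for GH females and 29.8% to 62.2% for SI females. The groups overlapped, and I16F had the highest share. Bases added to the 3′ end were found in 21.8% to 36.9% of miR-132-3p reads and 12.3% to 36.4% of miR-212-3p reads, and in at most 7.08% of the reads of the 5p strands. In miR-132-3p these were mostly an added uridine (mean 12.1%) or an added adenosine (mean 10.8%).

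**Figure D5:**
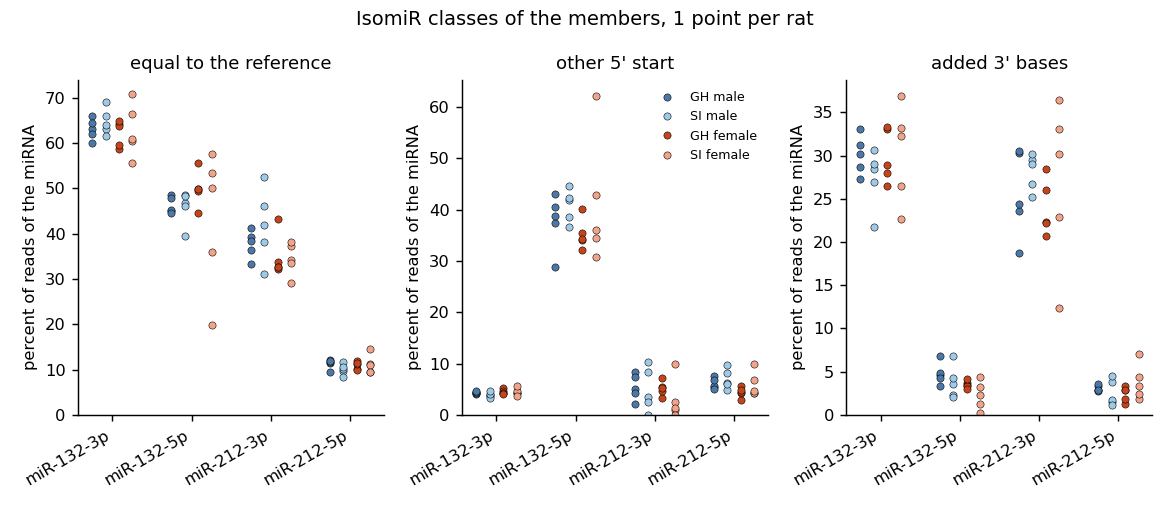
Percent of the reads of each member that equal the reference (left), begin at another 5′ base (middle), or carry bases added at the 3′ end (right), with 1 point per rat and the 4 groups in different colours. Other 5′ starts are common in miR-132-5p (28.7% to 62.2%), and the housing groups overlap in each class.

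Housing did not detectably change these shares. Of 32 comparisons (4 classes, with mismatches as the fourth, in 4 members and both sexes), 0 had an unadjusted p under 0.05 and 0 passed after adjustment (exact permutation tests, two-sided, lowest p = 0.13). IsomiRs were also counted singly in a separate fit with its own normalisation, in which 131 of the 10290 isomiRs tested were forms of the members. Of these, 0 passed in edgeR in males, in females, or over both sexes, with 12, 11, and 15 at an unadjusted p under 0.05. Of all isomiRs tested, 9.11%, 9.22%, and 14% were at an unadjusted p under 0.05, and 1 (0.00972%) in males, 0 in females, and 26 (0.253%) over both sexes passed. The lowest adjusted p among the members was 0.083, for the 21-base form of miR-132-5p shown above, with a log2 fold change of −1.08 over both sexes. The reference form of miR-132-5p had −0.89 (adjusted p = 0.12) and its 20-base form −0.39 (adjusted p = 0.45). In the same fit the reference form of miR-132-3p had −0.35 (adjusted p = 0.31) and the main form of miR-212-5p −0.19 (adjusted p = 0.68). In the miRNA fit, the whole miR-132-5p, miR-132-3p, and miR-212-5p were at −0.66, −0.20, and −0.01. The reference form of miR-212-3p had −0.55 (adjusted p = 0.11). Its 21-base form, which lacks the last base and took a mean of 17.1% of its reads, had −0.87 (adjusted p = 0.12).

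Across rats the members varied together to different degrees. With the mean of each group removed, the log2 CPM of miR-132-3p and miR-132-5p, strands of a single hairpin, had a Pearson r of 0.78 (permutation test, p = 0.00016) and a Spearman rho of 0.77 (permutation test, p = 0.00016) over 20 rats. Without I20M and I16F, the rats farthest from the median, r was 0.62. miR-132-3p and miR-212-5p, the dominant strands of the hairpins, had an r of 0.75 (permutation test, p = 0.0016) and a rho of 0.66 (permutation test, p = 0.0053), and r was 0.62 without these rats. miR-212-3p and miR-212-5p, also strands of a single hairpin, had an r of 0.24 (permutation test, p = 0.39) and a rho of 0.22 (permutation test, p = 0.42). The other pairs had r from 0.54 to 0.65, and after adjustment over the 6 pairs all but miR-212-3p with miR-212-5p were under 0.05. Without I20M and I16F, r of miR-132-5p with miR-212-5p went from 0.54 to 0.27, so that relation rests on these rats. The members of a rat share its library and its TMM factor. Some miRNAs outside the locus tracked miR-132-5p more closely than miR-132-3p did. With group means removed, r with miR-132-5p was 0.89 for miR-582-5p and 0.85 for miR-218a-5p. An r of this size was thus not particular to the strands of the hairpin.

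The miRNAs with the pattern most like that of miR-132-3p over the 20 libraries were miR-412-5p (Pearson r 0.81), miR-218a-5p (0.76), miR-409a-5p (0.71), miR-127-5p (0.71), and miR-582-5p (0.70), out of 496 miRNAs outside the locus. With group means removed they were miR-412-5p (0.81), miR-139-5p (0.77), miR-218a-5p (0.76), miR-582-5p (0.73), and miR-127-5p (0.72). These values describe the libraries and carry no test.

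Other miRNAs known to respond to neuronal activity or to act at synapses were counted from a list of 20, all of them tested. Over both sexes, 2 of the 20 were higher in SI and 3 were lower, beside 7.4% and 10.2% of all 500 miRNAs. miR-134-5p, a dendritic miRNA that limits spine size by repressing Limk1, rose by 0.59 on the log2 scale (standard error 0.16, adjusted p = 0.013), and miR-98-5p of the let-7 family rose by 0.65 (adjusted p = 0.013). miR-29a-3p had a log2 fold change of −1.07 (adjusted p = 0.0058), miR-335 of −0.98 (adjusted p = 0.045), and miR-181a-5p of −0.40 (adjusted p = 0.041). In males 1 of the 20 was higher (miR-34a-5p, 1.52, adjusted p = 0.0070) and 0 were lower, beside 1.4% and 2.6% of all miRNAs. There, 7 of the 20 were at an unadjusted p under 0.05 in edgeR, beside 23.0% of all miRNAs. In females 0 of the 20 passed in edgeR, with 7 at an unadjusted p under 0.05, beside 20.8% of all miRNAs. The median log2 fold change of the list over both sexes was −0.12, beside 0.00 for all 500 miRNAs, and that of the 4 members was −0.32. The 3 most counted miRNAs of the list were miR-9a-5p, miR-26a-5p, and miR-128-3p, at 0.09, −0.08, and 0.23 (adjusted p = 0.73, 0.78, and 0.34).

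Markers of the cell types that a punch can hold were counted in the same way, beside the 17.6% of all miRNAs that passed over both sexes. Of the neuronal markers (miR-124-3p, miR-9a-5p, miR-128-3p, and miR-138-5p), 0 of 4 passed in edgeR over both sexes, with 1 at an unadjusted p under 0.05 (miR-124-3p, −0.41, adjusted p = 0.10), beside 32.2% of all miRNAs. Their summed level was 109715 to 176910 CPM in GH and 82371 to 186969 CPM in SI rats. Of the endothelial markers, 1 of 2 was lower over both sexes (miR-126a-3p, −1.11, adjusted p = 0.011). The summed endothelial level was 880 to 2234 CPM in GH and 79.9 to 1096 CPM in SI rats. Of the markers of vascular mural cells, 1 of 2 was lower (miR-143-3p, −0.99, adjusted p = 0.0059), and their summed level was 9402 to 19740 CPM in GH and 2050 to 13774 CPM in SI rats. Of 4 oligodendrocyte markers, miR-338-5p was higher (0.89, adjusted p = 0.0039) and miR-338-3p lower (−1.74, adjusted p = 0.016). The other markers, miR-219a-5p (−2.07, adjusted p = 0.089) and miR-219a-2-3p (0.30, adjusted p = 0.30), did not pass. The summed level was 3636 to 6511 CPM in GH and 3978 to 10097 CPM in SI rats. By median level it was mostly miR-219a-2-3p (3615 CPM) and miR-338-5p (1492 CPM), beside 53.9 CPM for miR-338-3p and 6.85 CPM for miR-219a-5p. Of 3 red blood cell markers, 1 was higher (miR-486, 0.92, adjusted p = 0.0039), with summed levels of 792 to 1456 CPM in GH and 1405 to 4036 CPM in SI rats. By median level the sum was mostly miR-486 (1413 CPM, beside 6.81 CPM for miR-451-5p). Over both sexes miR-451-5p had 0.09 (adjusted p = 0.97) and miR-144-3p 1.03 (adjusted p = 0.64). Of 5 markers of microglia and leukocytes and 4 of choroid plexus and epithelium, 0 passed in edgeR over both sexes, with 0 at an unadjusted p under 0.05. The microglial and leukocyte sum was 81.5 to 185 CPM in GH and 44.2 to 329 CPM in SI rats, and the choroid and epithelial sum was 848 to 5245 CPM and 847 to 18227 CPM. The leukocyte marker miR-142-3p and the red blood cell marker miR-144-3p had a median of 0 CPM. The part of these cell types in the lower levels of miR-132-5p and miR-212-3p was not tested.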

How the data were processed

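Each small RNA library took 215 ng of total RNA as input and 22 PCR cycles. Per the paper's methods, the authors removed adapters and low-quality sequence with cutadapt and assigned reads to miRNAs with seqbuster and miRBase v21. Versions of these tools were not given in the sources used here. The authors deposited raw counts of each distinct sequence with its miRNA and end fields. The lowest count listed was 2, so sequences read once were absent. Counts were summed per miRNA, and miRNAs with at least 10 counts in at least 5 libraries were tested. All 20 libraries entered 1 quasi-likelihood model in edgeR 4.0.16 (R 4.3.3) with TMM, checked on simulated data. Groups followed the labels, where nothing besides the animal numbers says how rats relate. Ratios and shares used exact permutation tests over 252 assignments (63504 within both sexes), and correlations 100000 permutations, in Python 3.11.15 with scipy 1.17.1. Log2 CPM used a pseudocount of 1. Counting error was at most 3.75% of a member's count in any library, and it does not cover PCR duplicates.

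The members, marker lists, and tests were chosen with earlier results of these data known. The text names the members, the 5 miRNAs most correlated with miR-132-3p, and most of the 3 most counted isomiRs of each member. It also names list miRNAs past the threshold or among the 3 most counted, and some other cell type markers. Alternatives were DESeq2 1.42.0, other scalings and filters, limma 3.58.1 voom with quality weights, only the groups compared, the I17 libraries exchanged or left out, each rat left out, and a block for shared animal numbers. Leaving out I16F, I17F, I17M, and I20M, averaging ratios over the sexes, and the comparison with 158 hairpins were chosen after seeing the data.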

Additional observations from a re-analysis of the deposited data

Results flagged for a closer look

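In groups of 5 rats, a value was marked where 1 rat stood apart from the others by Dixon's 95% criterion. This marked 6 of 96 groups, and chance marks about 1 in 20. The explanations were not tested.

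Among SI males, I20M had a log2 normalised level of miR-212-5p of 9.67, with the next rat at 10.49, and I17M had a log2 ratio of miR-132-5p to miR-212-5p of −2.80, with the next at −1.99. The share of miR-132-5p reads equal to the reference was 39.5% in the SI male I15M, with the next at 46.0%. The share of miR-212-3p reads equal to the reference was 43.3% in the GH female G15F, with the next at 33.7%. Among SI females, 9.86% of miR-212-3p reads began at another 5′ base in I14F, with the next at 2.46%, and 7.29% of miR-212-3p reads carried a mismatch in I16F, with the next at 1.32%.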

How the results depend on the processing

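miR-132-5p over both sexes stayed past the threshold in 10 of 11 alternatives (the block aside) and in all 20 fits with 1 rat left out (log2 fold change −0.74 to −0.59). It was −0.40 without I16F, I17F, I17M, and I20M, the rats with the lowest levels of this miRNA. miR-212-3p over both sexes stayed in 6 of 11 alternatives and in 5 of 20 fits with 1 rat left out (−0.50 to −0.41). It missed the threshold at −0.44 with no count filter (adjusted p = 0.057), −0.44 with the I17 libraries exchanged (0.051), −0.41 with both left out (0.10), −0.38 in voom (0.068), and −0.31 without the 4 SI libraries (0.22), and its adjusted p ranged from 0.0044 to 0.22. In females, miR-132-5p passed at −0.80 in DESeq2, which also dropped the filter, and at −0.84 with at least 10 counts in every library, and miR-212-3p at −0.56 and −0.61. miR-132-5p in females ranged from −0.93 (without I10F, which made it pass at an adjusted p of 0.030) to −0.63 with 1 rat left out. Scaling by total counts in place of TMM moved the median of all miRNAs by −0.19 over both sexes. On that scale miR-132-5p was at −0.82, miR-212-3p at −0.62, miR-132-3p at −0.36, and miR-212-5p at −0.17, each moved by about that shift. The cause was not tested, except that settings without some rats hold fewer samples.

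Counts of all miRNAs moved more than the members. In males (20 in the main fit) they were 60 in DESeq2, 40 with at least 10 counts in every library, 84 with only the groups compared, 11 with the I17 libraries exchanged, 13 with both left out, 87 in voom, and 48 without the 4 SI libraries. In females (2 in the main fit) they were 67, 40, 0, 5, and 0 under the first 5 of these settings and 1 without the 4 SI libraries, with 67 and 97 at an unadjusted p under 0.05 where the count was 0. Over both sexes (88) they were 50 with both I17 libraries left out and 56 without the 4 SI libraries. For the interaction (2) they were 6 in DESeq2, 0 with DESeq2's size factors, total counts, the I17 libraries exchanged, or without the 4 SI libraries, and 1 with both I17 libraries left out. DESeq2 called 5 miRNAs between the sexes in GH and 5 in SI rats. Of isomiRs (1 in males, 0 in females) it called 41 and 31, the stricter filter gave 34 and 1, and exchanging the I17 libraries gave 0 in males.

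With 1 rat left out the counts were 7 (without I15M) to 73 (without I16F) in males, 1 to 63 (without I10F) in females, 58 (without G16F or G17F) to 117 (without I10F) over both sexes, and 0 to 2 for the interaction. For isomiRs they were 1 to 46 (without I16F) in males and 0 to 3 in females.

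Some GH and SI rats of a sex carry the same animal number (2 numbers for males, 3 for females). Deviations of same-numbered rats correlated at −0.11 and −0.01 in males and at 0.10, −0.40, and −0.05 in females. So few correlations cannot tell whether the numbers pair rats, and the labels do not say. Among these rats alone, the replicate block gave 2 miRNAs in males, 0 in females, and 0 over both sexes, and the same rats without the block gave 1, 0, and 36. Over both sexes miR-132-5p was −0.93 with the replicate block (adjusted p = 0.20) and −0.89 without it (0.091), and miR-212-3p was −0.66 (0.26) and −0.65 (0.13).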
